A study of Homo sapiens with 8 samples.

Results

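The UBE2 genes encode most human E2 ubiquitin-conjugating enzymes, and their mRNAs were followed after a block of transcription in colorectal cancer cells with and without knockdown of the RNA-binding protein RBMS1. The members were all transcripts in the authors' 2 deposited stability tables whose gene symbol starts with UBE2. This rule uses the symbol and not the measured values, but it was set with earlier results of these data known. They comprised 75 transcripts in either table and 68 in both, which gave 33 symbols with a value in both cell populations out of 12484 genes in all. Of the 33, 32 are protein-coding genes and the other is UBE2D3-AS1, a long non-coding RNA antisense to UBE2D3 and lying within it. The RefSeq gene table lists 36 protein-coding symbols of this name, and UBE2L5, UBE2QL1, UBE2U and UBE2V1P16 are not analysed here.

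Ubiquitin reaches its substrates in a cascade: an E1 enzyme activates it, an E2 enzyme carries it as a thioester on a catalytic cysteine, and an E3 ligase brings the loaded E2 to the substrate. The E2 largely sets which chain is built, so chains linked through lysine 48 of ubiquitin, which mark proteins for the proteasome, and chains linked through lysine 63, which act in signalling and DNA damage tolerance, come from different E2s. Some members carry ubiquitin-like proteins such as NEDD8 or ISG15 instead of ubiquitin, and the UEV members, which lack the catalytic cysteine, act as partners of an active E2.

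The cells were SW480, an established human colorectal adenocarcinoma line that the series text calls a breast cancer line. They stably expressed a control shRNA or 1 that targets RBMS1, a protein that binds A+U-rich RNA, and the labels name 1 RBMS1 shRNA clone where the series text names 2. Each population was sampled untreated, at 0 h, and 9 h after addition of 10 µg/mL alpha-amanitin, a toxin of RNA polymerase II, with 2 libraries for each of the 4 groups of shRNA and time. Total RNA depleted of ribosomal RNA was sequenced, and the deposited tables hold 1 log fold change per transcript and population, with the libraries already combined. Neither its base nor its direction is stated, and it was read as the log2 fold change of 9 h over 0 h. A negative value means a lower level at 9 h relative to the rest of the library, a gene's value is the mean over its transcripts present in both tables, and control and knockdown below always mean the cells with the control shRNA and with the RBMS1 shRNA. Because no value per library, count or abundance was used, depth is unknown, no replicate error can be attached to any value, and no test was possible.

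In the authors' deposited tables the 2 RBMS1 transcripts stood at 0.09 and −0.37 in control and at −0.35 and −1.38 in knockdown, which are changes over time and do not check the knockdown itself. The short-lived mRNAs MYC, FOS and JUN, from which the direction of the comparison was read, lay between −1.61 and −0.81 in the authors' deposited tables. Of 11 colon epithelial markers 9 were listed in either table, CDX1 and LGR5 being the absent ones, and no endothelial, blood or liver marker was listed. ACTA2, CD68 and LYZ were listed as well. Over all 12484 genes the median value was −0.07 in control and −0.06 in knockdown.

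After 9 h of transcription block most UBE2 mRNAs stood near their starting level, relative to the rest of the library. The median of the 33 members was 0.08 in control, with quartiles of −0.18 and 0.30, and 0.10 in knockdown, with quartiles of −0.23 and 0.32. Values within 0.5 of 0 were found for 25 members (75.8%) in control, beside 62.5% of all genes, and for 26 members (78.8%) in knockdown, beside 63.7% of all genes. The positive side is a matter of scale, since ribosomal protein mRNAs had medians of 0.41 and 0.37, and relative to them the UBE2 median was −0.33 in control and −0.27 in knockdown.

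Few members passed 2-fold, a size of 1 on the log2 scale. In control 1 of 33 members, UBE2A, lay at or below −1, beside 9.73% of all genes, and 1, UBE2D3-AS1, lay at or above 1, beside 3.51%. In knockdown 1 member, UBE2H, lay at or below −1, beside 9.2% of all genes, and 2, UBE2E3 and UBE2D3-AS1, lay at or above 1, beside 4.07%. The values of UBE2A, UBE2H and UBE2E3 are means over transcripts that disagree by several log2 units, as described further on. The 17 coding members with a single listed transcript, whose value needs no averaging, included none past 1 in either direction. Among all 7286 genes with 1 listed transcript, 8.99% lay at or below −1 and 2.79% at or above 1 in control, and 8.26% and 3.24% did so in knockdown.

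**Figure D1:**
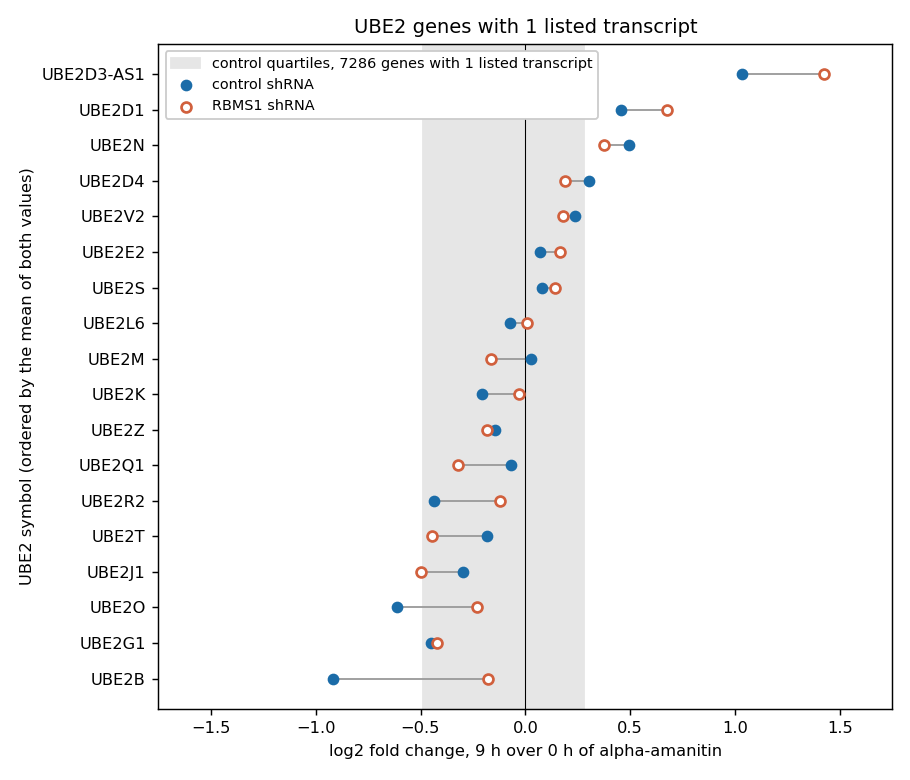
Log2 fold change of 9 h over 0 h (x axis) for the 18 UBE2 symbols with 1 listed transcript (y axis), with filled points for control, open points for knockdown and a line joining both. The grey band spans the control quartiles of all 7286 genes with 1 listed transcript; UBE2B is lowest in control at −0.92, and UBE2D3-AS1 is the 1 symbol beyond 1.

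The broad-spectrum E2s that start chains with many ligases formed the highest group of roles in control. Its 9 genes, UBE2D1 to UBE2D4, UBE2E1 to UBE2E3, UBE2L3 and UBE2W, had a median of 0.30 in control and 0.19 in knockdown. Both medians were under those of ribosomal protein mRNAs. By gene means 8 of 9 lay above 0 in each population, beside 45.7% of all genes in control and 45.9% in knockdown. That count depends on transcripts that disagree. In knockdown the UBE2E3 mean was above 0 through 1 transcript, with a median over transcripts of −0.12, and UBE2E1 stood at 0.01. Adding transcripts listed for 1 population alone put UBE2E1 at −0.35 in control and UBE2L3 at −0.05 in knockdown. UBE2D1 (chromosome 10, 58335006 to 58370748 on GRCh38), a partner of very many RING ligases, stood at 0.46 in control and 0.67 in knockdown in the authors' deposited tables. Its paralog UBE2D4 stood at 0.30 and 0.19 in the authors' deposited tables. Both were above 0 in both populations.

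UBE2D2, another close paralog, had a mean of 0.32 in control and 0.10 in knockdown, from transcripts at 0.59 and 0.19 and at 0.05 and 0.01 in the authors' deposited tables. UBE2D3 (chromosome 4, 102794383 to 102868895), which has 6 listed transcripts, had a mean of 0.17 and 0.38. For control the 6 lay between −0.12 and 0.42 in the authors' deposited table. For knockdown 5 of them lay between −0.61 and 0.38 and the sixth at 2.35 in the authors' deposited table. The sixth encodes the same protein as 4 of the others, so the high knockdown value belongs to a transcript that differs in its untranslated parts. UBE2D2 and UBE2D3 encode closely related proteins, and how the authors assigned reads with several matches is not stated.

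UBE2D3-AS1, which overlaps UBE2D3 on the opposite strand, was the highest member in control at 1.03 and stood at 1.42 in knockdown in the authors' deposited tables. Whether the authors counted reads by strand is not given in the sources used here, so reads of UBE2D3 and of its antisense RNA cannot be told apart.

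The UBE2E enzymes carry an N-terminal extension beside the catalytic core. UBE2E2 was close to 0, with 0.07 in control and 0.17 in knockdown in the authors' deposited tables. UBE2E1 had a mean of 0.51 in control and 0.01 in knockdown, from transcripts at 0.86 and −0.24 and at 0.15 and 0.26 in the authors' deposited tables. One more UBE2E1 transcript was listed for control alone, at −2.08 in the authors' deposited table. The UBE2E1 transcripts thus spanned both sides of 0.

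UBE2L3, which passes ubiquitin to HECT and RBR ligases, had a mean of 0.87 in control and 0.29 in knockdown. The authors' deposited tables gave its principal coding transcript 0.38 and 0.42, and a non-coding transcript 1.35 and 0.15. The coding form thus differed by 0.04 between the populations, and the difference of the mean came from the non-coding form. UBE2W, which attaches ubiquitin to the amino terminus of substrates, had a mean of 0.29 in control and −0.67 in knockdown over 4 transcripts that differed between the populations in opposite directions.

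In control the E2s of lysine-63 chains and DNA damage tolerance spread most. The 6 genes had a median of −0.10 in control and 0.00 in knockdown. UBE2N (chromosome 12, 93405684 to 93441947), an E2 dedicated to lysine-63 chains, stood at 0.50 and 0.38 in the authors' deposited tables. Its UEV partner UBE2V2 stood at 0.24 and 0.18 in the authors' deposited tables. Enzyme and partner were both above 0 in both populations.

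UBE2V1, the other UEV partner, had a mean of −0.01 in control and 0.65 in knockdown over 7 shared transcripts. These ran from −1.27 to 1.54 in control and from −0.35 to 2.23 in knockdown in the authors' deposited tables. The lowest and the highest of them in control correspond to 1 and the same GENCODE transcript model, together with another at −0.64 in control and 0.23 in knockdown in the authors' deposited tables. Values 2.81 apart in control were thus given to accessions with no sequence difference in that annotation. The gene also shares its exons with the read-through locus PEDS1-UBE2V1, and how reads were divided between them is not given in the sources used here.

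UBE2A and UBE2B encode the paralogous RAD6 enzymes, which monoubiquitinate PCNA and histone H2B with different ligases. UBE2B (chromosome 5, 134371569 to 134392108) has 1 listed transcript and was the lowest coding member of that kind in control, at −0.92, against −0.18 in knockdown in the authors' deposited tables. That control value lay at the 11.2 percentile of all genes, and the knockdown value at the 42.2 percentile. UBE2A (chromosome X, 119574563 to 119584423) had a mean of −2.11 in control and −0.80 in knockdown. The authors' deposited tables gave 1 of its transcripts −6.94 and −4.74, and the other two 0.39 and 2.23, and 0.23 and 0.11. The median over its transcripts in control was 0.23, so the 2 RAD6 genes cannot be ordered from these values. UBE2T, the E2 of the Fanconi anaemia pathway, had −0.18 in control and −0.44 in knockdown in the authors' deposited tables.

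The E2s of the anaphase-promoting complex (APC/C), which drives exit from mitosis, differed from each other. UBE2C (chromosome 20, 45812644 to 45816952) starts the chains on APC/C substrates and had a mean of −0.84 in control and −0.31 in knockdown over 6 shared transcripts. The authors' deposited tables gave its principal coding transcript −0.35 and −0.48, and the other 5 ranged from −2.74 to 0.70 in control and from −2.60 to 0.62 in knockdown. UBE2S, which extends the chains through lysine 11, has 1 listed transcript and stood at 0.08 and 0.14 in the authors' deposited tables. UBE2C was thus below UBE2S in both populations, by its mean and by its principal transcript. UBE2R2, a partner of the SCF ligases, stood at −0.43 in control and −0.12 in knockdown in the authors' deposited tables.

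The E2s of lysine-48 chains and of degradation from the endoplasmic reticulum were all within 0.5 of 0. The 5 genes had a median of −0.21 in control and −0.03 in knockdown. UBE2G1 (chromosome 17, 4269259 to 4366675), a partner of cullin ligases, was the lowest of them in control at −0.45, with −0.42 in knockdown in the authors' deposited tables. UBE2J1, anchored in the membrane of the endoplasmic reticulum, stood at −0.30 and −0.50, and the chain-extending UBE2K at −0.21 and −0.03, in the authors' deposited tables. Paralogs of UBE2G1 and UBE2J1 lay higher, with means of 0.20 and 0.29 for UBE2G2 and 0.13 and 0.37 for UBE2J2. Both UBE2G2 transcripts were above 0 in both populations. The UBE2J2 transcripts were not alike, since the authors' deposited tables gave the principal coding one −0.19 and −0.19 and the other shared one 0.46 and 0.93, so the sign of UBE2J2 depends on the transcript.

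The E2s that serve ubiquitin-like proteins had medians of 0.02 in control and 0.01 in knockdown over 5 genes. UBE2M, one of the NEDD8 E2s, stood at 0.02 and −0.16 in the authors' deposited tables. UBE2F, the other NEDD8 E2, had a mean of 0.67 in control and 0.33 in knockdown, but its shared transcripts went opposite ways, from 0.83 to −0.81 and from 0.51 to 1.47 in the authors' deposited tables. UBE2L6, the E2 of ISG15, stood at −0.07 and 0.01 in the authors' deposited tables. UBE2Z, which is charged by the E1 enzyme UBA6, stood at −0.14 and −0.18 in the authors' deposited tables. Of these 4 genes UBE2F in control was the exception, and the others lay within 0.5 of 0 in both populations.

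Of the 4 remaining E2s, UBE2O, a large enzyme that acts as E2 and E3 in 1 chain, stood at −0.61 in control and −0.23 in knockdown in the authors' deposited tables. UBE2Q1 stood at −0.07 and −0.32 in the authors' deposited tables. Its paralog UBE2Q2 had a mean of 0.48 and 0.18, because the authors' deposited tables place 1 of its transcripts at 1.56 and 1.41. For the other two, the authors' deposited tables hold 0.08 and −0.70, and −0.20 and −0.17, so the median over the 3 was 0.08 and −0.17. UBE2H (chromosome 7, 129830732 to 129952960), the E2 of the CTLH ligase complex, had a mean of 0.17 in control and −1.20 in knockdown. Its transcripts had values of 0.46 and −0.28, of −0.35 and −0.15 and of 0.41 and −3.16 in the authors' deposited tables. The knockdown mean beyond −1 thus rested on 1 of 3 transcripts, and the principal coding one was at −0.15.

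The second comparison asked how far the UBE2 mRNAs behaved differently after the transcription block when RBMS1 was knocked down. The difference, knockdown minus control, was centred on its median over all genes (−0.0168). The members' median centred difference was 0.08, with quartiles of −0.20 and 0.25, and 25 of 33 (75.8%) lay within 0.5 of 0, beside 76.9% of all genes. At or below −1 lay 1 member, UBE2H, beside 4.17% of all genes, and at or above 1 lay 2, UBE2A and UBE2E3, beside 4.87%. These counts are near the background, and which member lies below −1 depends on how transcripts are combined. UBE2W was next lowest at −0.94. With medians over transcripts UBE2W lay at −1.44 and UBE2H at −0.72. With coding transcripts alone UBE2W lay at −2.14 and UBE2H at −1.35. Among members with 1 listed transcript none of 18 passed 1 in either direction, beside 1.89% of genes of that kind at or below −1 and 2.62% at or above 1. All 3 members past 1 were among the 15 with several listed transcripts, a kind of gene of which 7.35% lay at or below −1 and 8.02% at or above 1.

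Within the members with 1 listed transcript the highest centred difference belonged to UBE2B, 0.76, which was at −0.92 in control and −0.18 in knockdown. Next were UBE2D3-AS1 at 0.41 and UBE2O at 0.40, and lowest was UBE2T at −0.25. Of these 18 symbols 17 (94.4%) lay within 0.5 of 0, beside 85.0% of all genes with 1 listed transcript. UBE2B was the 1 symbol outside.

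**Figure D2:**
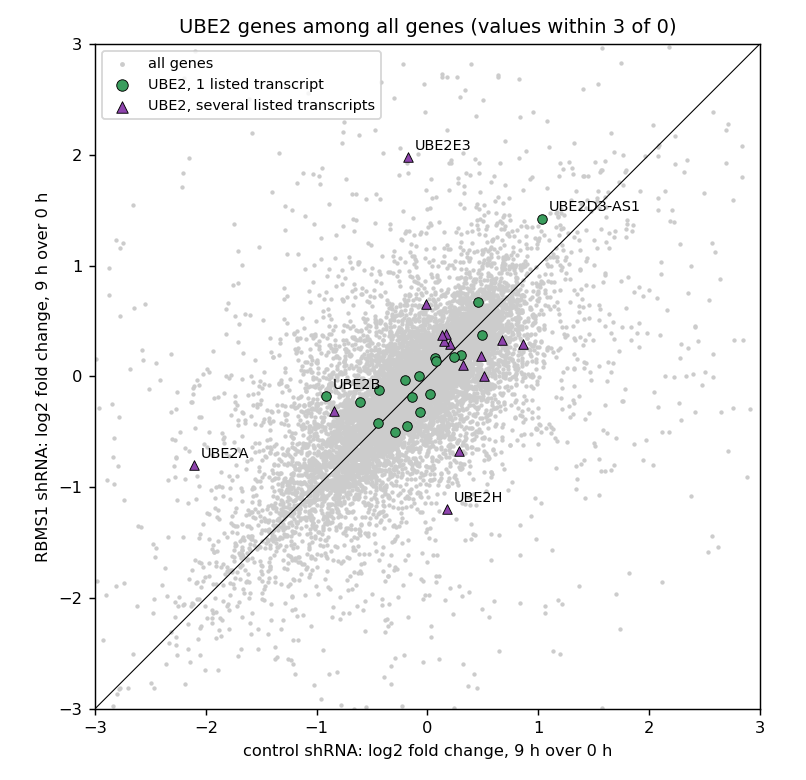
Log2 fold change of 9 h over 0 h in control (x axis) and in knockdown (y axis), with grey points for all genes within 3 of 0 on both axes, circles for UBE2 symbols with 1 listed transcript and triangles for those with several. The line marks equal values. Among the circles UBE2B lies farthest from it, at −0.92 in control and −0.18 in knockdown. UBE2E3, UBE2A, UBE2H and UBE2W, all with several transcripts, lie farther from the line than UBE2B.

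The 2 populations ordered the members with 1 listed transcript alike, and those with several not. Across the 18 symbols with 1 listed transcript Spearman's rho between control and knockdown was 0.81 (Pearson's r 0.83) and 16 had the same sign. Over all 7286 genes of that kind rho was 0.78 (r 0.71) and 6036 had the same sign. Across the 15 with several transcripts rho was −0.11 (r 0.26) and 11 had the same sign. Over all 12484 genes rho was 0.66 (r 0.50) and 9763 had the same sign. The correlation over all genes with several transcripts was not computed, so whether the contrast is particular to UBE2 genes cannot be said. These correlations are across genes, which share libraries and are not replicates, and they are given as a description.

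The largest differences between the populations were those of single transcripts. The spread was widest in UBE2E3 (chromosome 2, 180980360 to 181063425). Of its 4 transcripts the authors' deposited tables gave the widest apart −1.60 in control and 8.83 in knockdown, and the others 1.44 and −0.15, −0.72 and −0.67, and 0.16 and −0.09. All 4 encode the same protein. The transcript at 8.83 corresponds to the same GENCODE model as the one at −0.67, so accessions without a sequence difference in that annotation lay 9.50 apart in knockdown. The gene mean of 1.98 in knockdown and its centred difference of 2.17 rested on that 1 transcript, and the medians over transcripts were −0.12 and −0.09.

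UBE2C showed the same feature on a smaller scale. The transcript at −2.74 in control was at 0.49 in knockdown, another at −0.99 was at −2.60, and another at −1.76 was at −0.16, all in the authors' deposited tables. The remaining 3 shared transcripts differed by no more than 0.16 between populations before centring. The 3 UBE2C transcripts that differed by more than 1 between the populations thus did so in opposite directions.

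In UBE2W the authors' deposited tables gave the 3 coding transcripts 0.66 and −2.90, 0.32 and −0.06, and 1.24 and −1.30, and a non-coding one −1.07 and 1.57. The 3 coding transcripts were each lower in knockdown and the non-coding one was higher. UBE2W, UBE2C and UBE2E3 were the 3 of 15 multi-transcript members (20.0%) with a centred difference of at least 1 in 1 transcript and of −1 or less in another, beside 503 of 4408 such genes overall (11.4%).

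**Figure D3:**
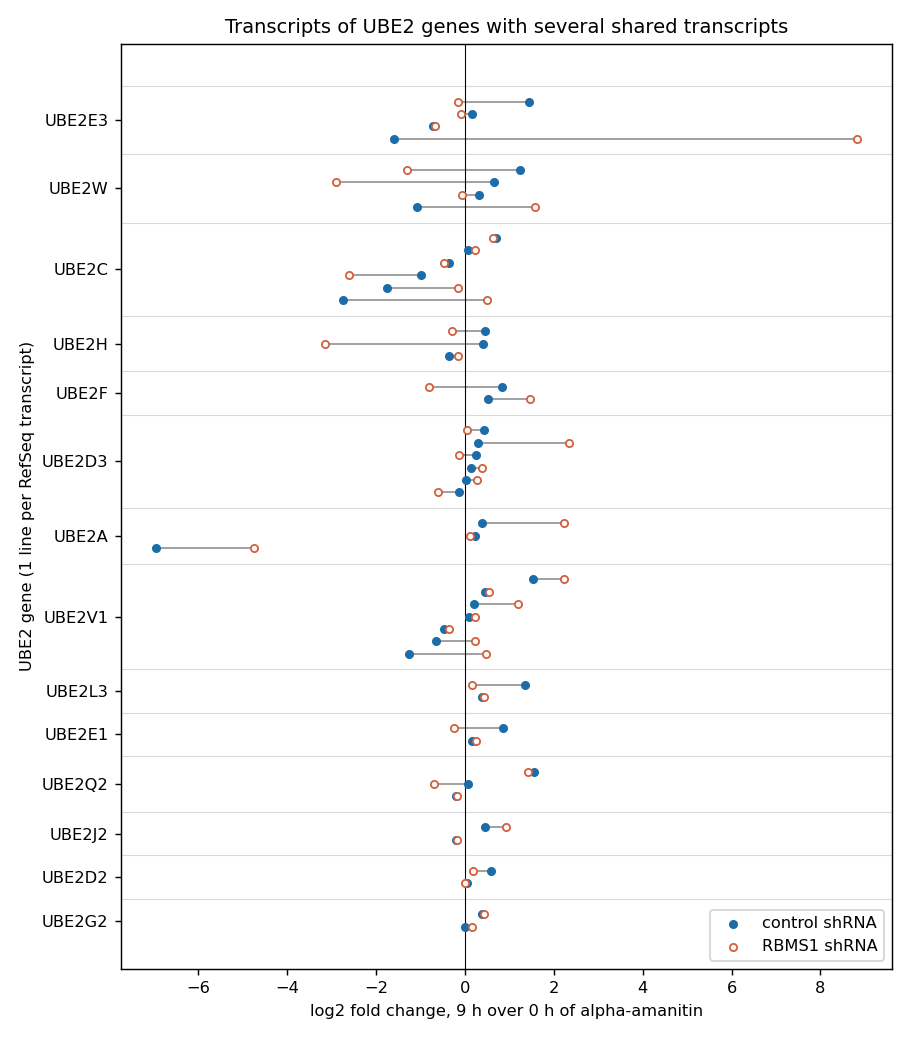
Log2 fold change of 9 h over 0 h (x axis) of each transcript of 14 of the 15 UBE2 genes with several transcripts in both tables (y axis, 1 line per transcript, filled point control, open point knockdown). UBE2E3 has the longest line, from −1.60 to 8.83, and UBE2G2 and UBE2D2 the shortest set of lines.

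The range of the difference among the transcripts of 1 gene had a median of 1.64 over the 15 members, from 0.11 in UBE2G2 to 12.0 in UBE2E3, beside a median of 1.11 over the 4408 genes. In 10 of 15 members (66.7%) the range was at least 1, beside 53.7% of those genes. Many transcripts of 1 gene share most of their sequence, so that shared reads have to be divided among them. In 32 member transcripts under 10% of the 31-base words were found in no other listed transcript of the gene, and 11 of them (34.4%) had a centred difference of at least 1 in size, beside 30.4% of all such transcripts. Where 10% or more of the words were unique, 6 of 17 member transcripts (35.3%) did, beside 16.8% of all. Which part the division of reads had in these values was not tested.

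The neighbouring steps of the cascade were read from lists of named genes, each described by its median and by genes at its ends by the mean of both populations. All values in these lists are gene values, that is means over the transcripts of a gene in the authors' deposited tables, also where a gene has 1. Ubiquitin and ubiquitin-like genes lay highest, with medians of 0.47 in control and 0.28 in knockdown over 13 genes. Of these, 11 (84.6%) were above 0 in each population, beside 45.7% of all genes in control and 45.9% in knockdown. The highest was UBB, which encodes head-to-tail repeats of ubiquitin, with means of 0.47 and 0.96.

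The 10 E1 enzymes had medians of 0.12 in control and −0.08 in knockdown, from MOCS3 at −0.35 and −0.47 to UBA7, the E1 of ISG15, at 0.54 and 0.73. The 8 E2s and E2-like proteins without the UBE2 name had medians of −0.10 and −0.07, close to all genes. The lowest of these was ATG10, an E2-like enzyme of autophagy, at −0.49 and −0.50, and the highest UFC1, the E2 of UFM1, at 0.59 and 0.30. CDC34, a SCF partner and paralog of UBE2R2, had means of 0.02 and −0.06. None of these 18 genes lay beyond 1 in either population. Of all genes, 9.73% lay at or below −1 and 3.51% at or above 1 in control, and 9.2% and 4.07% in knockdown. With so few genes, the absence says little.

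HECT and RBR ligases had the lowest median of these lists in both populations. The 29 genes, whose proteins receive ubiquitin from UBE2L3 and the UBE2D enzymes on a cysteine of their own, had medians of −0.28 in control and −0.21 in knockdown. Above 0 lay 4 (13.8%) in control, beside 45.7% of all genes, and 10 (34.5%) in knockdown, beside 45.9%. The highest was RBCK1, a subunit of the linear chain assembly complex, at 0.50 and 0.44. The 17 APC/C subunits and regulators, partners of UBE2C and UBE2S, had medians of −0.05 and −0.06. The lowest was the activator FZR1, with means of −3.37 and −3.81, and the highest ANAPC11, a RING subunit, at 0.56 and 0.28. The 13 cullins and RING partners, which work with UBE2M, UBE2F, UBE2R2 and UBE2G1, had medians of 0.11 and 0.24, from CUL4A, with means of 0.11 and −2.55, to ELOC at 0.43 and 0.74.

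**Figure D4:**
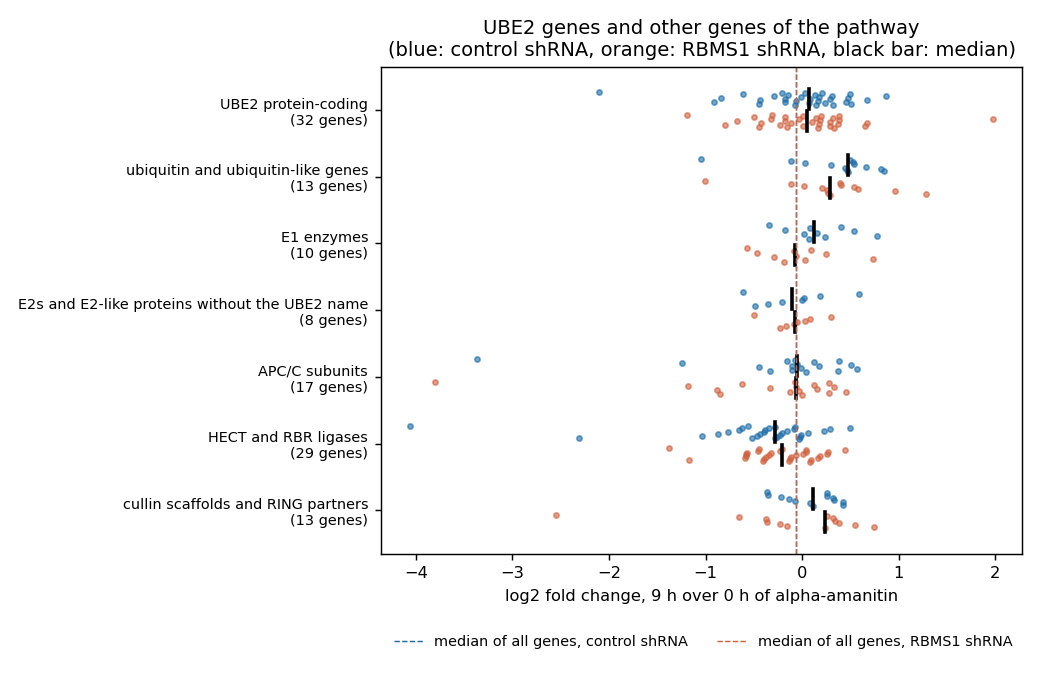
Log2 fold change of 9 h over 0 h (x axis) of each gene in the UBE2 family and 6 other gene lists of the ubiquitin system (y axis, number of genes in brackets), blue for control and orange for knockdown. Black bars mark list medians and dashed lines the medians of all genes; ubiquitin-like genes lie to the right at 0.47 and 0.28, and HECT and RBR ligases to the left at −0.28 and −0.21.

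The 3′UTR is where most elements that set mRNA decay are bound, among them AU-rich elements and sites of Pumilio proteins. The longest 3′UTR of each coding member was read from GENCODE 29 transcripts on GRCh38. It was longer than usual, with a median of 1892 nt over 32 members, from 178 nt in UBE2T to 7882 nt in UBE2W, beside 1108 nt over 11008 genes. The median A+T content was 60.2% beside 57.7% over those genes, from 39.0% in UBE2M to 73.0% in UBE2T.

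Over all 11008 genes, 3′UTR length and value were weakly and inversely related, with a rho of −0.18 in control and −0.18 in knockdown. Over the 32 members rho was 0.24 in control and −0.01 in knockdown, and over the 17 with 1 listed transcript 0.26 and 0.41, beside −0.22 and −0.21 over 6066 genes of that kind. These too are descriptions across genes that share libraries.

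**Figure D5:**
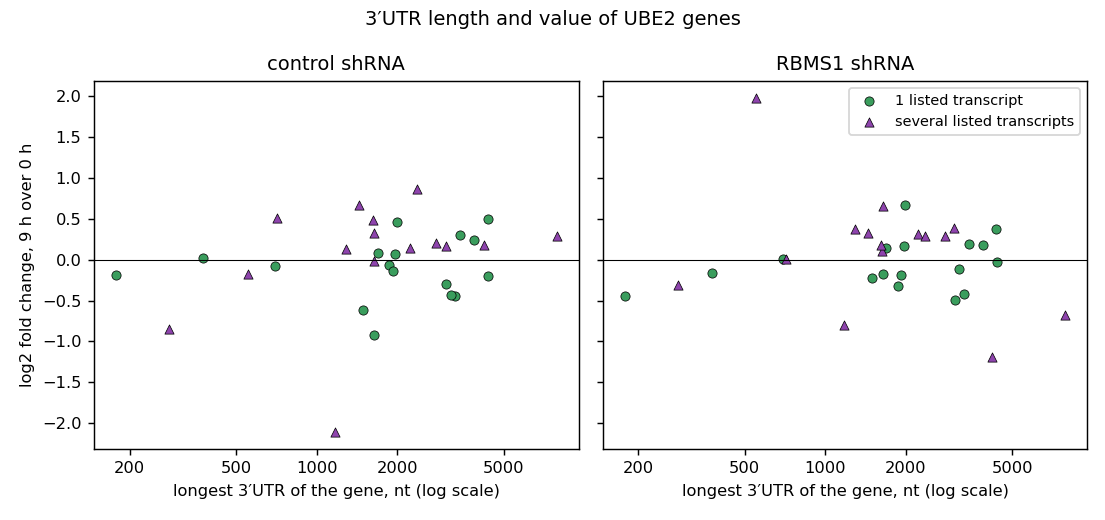
Log2 fold change of 9 h over 0 h (y axis) against the length of the longest 3′UTR in nt (x axis, log scale) for the 32 coding UBE2 genes, in control (left) and knockdown (right). Circles are genes with 1 listed transcript and triangles those with several; the shortest 3′UTR, of UBE2T, has 178 nt and the longest, of UBE2W, 7882 nt.

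Motifs were searched on the transcript strand in the last 300 nt of the 3′UTR, in 30 members and 9138 genes with that length. The AU-rich core ATTTA was found in 19 of 30 members (63.3%), beside 49.8% of all genes. The nonamer TTATTTATT, which contains that core, was found in none of 30 members, beside 1.94%. ATATA, a core bound by RBMS proteins in vitro, was found in 12 members (40%), beside 35.9%. The Pumilio motif TGTANATA, in which N is any base and which contains ATATA where N is T, was found in 4 members (13.3%), beside 10.9%. No test of these shares was made.

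The Pumilio-type matches are shown because the genes that carry 1 had lower values over the whole table, with a median of −0.33 beside −0.10 without it in control and −0.27 beside −0.10 in knockdown. Lower medians were not particular to this motif. For the nonamer they were −0.31 beside −0.12 in control and −0.32 beside −0.11 in knockdown. For ATTTA they were −0.16 beside −0.08 and −0.15 beside −0.08, and for ATATA −0.14 beside −0.11 and −0.15 beside −0.10. The matches near the 3′ end in UBE2A, UBE2H, UBE2N and UBE2Z, the match in the short 3′UTR of UBE2T and a nonamer of UBE2K are given 5′ to 3′ on the transcript strand with the motif in capitals and 10 nt of GENCODE sequence on each side. All lie in the 3′UTR.
UBE2A, chrX:119584386-119584413, plus strand: tttcaaaagtTGTAAATAaaaataacct
UBE2H, chr7:129830732-129830759, minus strand: taaataaacgTGTATATAccttggcaaa
UBE2N, chr12:93405701-93405728, minus strand: ttgagagaagTGTAAATAataaaaatct
UBE2Z, chr17:48928977-48929004, plus strand: tatatctgacTGTATATAaatgaagttt
UBE2T, chr1:202331698-202331725, minus strand: ttatttatctTGTACATAtgtattttga
UBE2K, chr4:39780196-39780224, plus strand: agatttttctTTATTTATTttaaatacct

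The match in UBE2H ends 10 nt before the annotated end of its 3′UTR, that in UBE2N 21 nt, that in UBE2A 22 nt and that in UBE2Z 62 nt. The nonamer in UBE2K lies 2578 nt from the end, outside the window searched. UBE2W held 9 nonamers over its whole 3′UTR, also outside that window, and these are not shown. UBE2N carries its match with values of 0.50 and 0.38, and UBE2Z with values of −0.14 and −0.18, so members with a match lay on both sides of 0. The 4 members with a match in the window had a median of 0.02 in control beside 0.11 for the 26 without, and in knockdown −0.49 beside 0.15. The knockdown median includes UBE2A and UBE2H, whose low means each rest on 1 transcript. In UBE2A the match was read from the transcript with the longest 3′UTR, 1170 nt. That transcript was at 0.39 in control and 2.23 in knockdown in the authors' deposited tables. The UBE2A transcript at −6.94 and −4.74 in the authors' deposited tables has a 3′UTR of 366 nt, and whether it holds the match was not tested. In UBE2H the transcript at −3.16 in the authors' deposited table has no 3′UTR in its GENCODE model. Such models can be shorter than the RefSeq record, so whether this transcript holds the match was not tested. The principal transcript of UBE2H, which holds the match in a 3′UTR of 4205 nt, was at −0.15 in the authors' deposited table. A match in these letters does not show that the site is bound.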

How the data were processed

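The 8 libraries were ribosomal-RNA-depleted total RNA, 2 for each shRNA and time. The submitters' processing notes name STAR 2.5, Cufflinks, Cuffdiff and hg38 without roles. The authors deposited 1 log fold change per RefSeq transcript and shRNA, per the file headers, taken as log2 values because Cuffdiff, which they name, writes log2. Neither base nor direction is stated, and 9 h over 0 h was read from negative MYC, FOS and JUN. Depth, normalisation and upstream filters are not stated.

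Of 22468 accessions, 22132 were paired with symbols by RefSeq (GRCh38.p14) and 212 by GENCODE 29; 124 without a symbol were left out. Gene values were means over shared transcripts, computed with Python 3.11.15 and pandas 2.3.3 and checked on simulated data. A size of 1 was counted without a test. Through its RefSeq table GENCODE 29 gave models for 74 of 75 UBE2 transcripts; these can be shorter than the RefSeq record. Protein comparisons were not made.

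Members and lists were chosen with earlier results of these data known. By rule, genes given in full include the 6 lowest and 6 highest members by mean and by centred difference, and each list's lowest and highest gene; 1 member and 2 list genes enter counts and medians but are not reported here. Alternatives varied transcripts, scale, size and filters; leaving out replicates was not possible. The labels do not tie the 2 libraries in a group to different cultures.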

Additional observations from a re-analysis of the deposited data

How the results depend on the processing

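No paired analysis was possible because the deposited tables give 1 combined value per transcript, and leaving out a replicate was not possible for the same reason. Medians of the 33 members moved by over 0.1 with medians over transcripts (centred difference −0.0234), with 1 listed transcript (−0.0705 in control and −0.0761 in knockdown) and relative to ribosomal proteins (−0.33 and −0.27; all genes −0.48 and −0.43). Counts past 1, as at or below −1 and at or above 1, were small and moved easily. Medians over transcripts gave 0 below in control, 0 and 1 in knockdown, and 1 above for the centred difference. Coding transcripts alone gave 0 above in control, 2 and 1 in knockdown, and 2 below for the centred difference. Genes with 1 listed transcript gave 0 below in control, 0 and 1 in knockdown, and 0 and 0 for the difference. Protein-coding genes alone gave 0 above in control and 1 above in knockdown. The ribosomal scale gave 4 and 0 in control (21.2% and 2.01% of all genes) and 3 below in knockdown (18.7%). A size of 0.5 gave 4 and 4 in control (24.8% and 12.7%), 3 and 4 in knockdown (23.9% and 12.5%), and 3 and 5 for the difference (10.8% and 12.4%). Leaving out the outer 1% of values gave 1 above in knockdown and in the difference, and the least changing transcript gave 0 and 0. With APPRIS principal transcripts, an alternative chosen after seeing the data and open to 27 members, the control median was −0.0690 and the counts were 0 and 0 in control, 0 below in knockdown, and 0 and 1 for the difference. Among values of at least 1 in size, the sign turned for 3 genes with several transcripts. UBE2A was at 0.23 in control with the median over transcripts and its difference at −0.10 with the least changing transcript. UBE2E3 was at −0.12 in knockdown and −0.0876 in the difference with the median, and at −0.31 and −0.58 without the outer 1%. The difference of UBE2H was 0.21 with the least changing transcript and 0.23 with the principal one. Depth is unknown, so what it limits cannot be stated. Over the single members, 59 of 756 values changed sign under an alternative: 26 relative to ribosomal protein mRNAs and 33 elsewhere, in 12 genes with several transcripts. Of the 59, 8 were of values of at least 1 in size.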

Other observations

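Transcripts listed for 1 population alone entered no gene value. In the authors' deposited table for control these were UBE2E1 at −2.08, UBE2F at −1.94, UBE2V1 at 0.04 and the transcribed pseudogene UBE2Q2P2 at −0.46. In the authors' deposited table for knockdown they were UBE2J2 at −1.71, UBE2L3 at −0.72 and a UBE2C transcript at 0.35. For UBE2E1, UBE2F, UBE2J2 and UBE2L3 the unshared transcript lay below each shared transcript of its gene in the same table. Adding these transcripts to the gene means turned the sign of 4 values, which became −0.35 for UBE2E1 and −0.20 for UBE2F in control and −0.32 for UBE2J2 and −0.05 for UBE2L3 in knockdown.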
